A study of Mus musculus with 24 samples.

Results

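The genes described here are 10 regulators and carriers of iron: Hamp, Hamp2, Bmp6, Tfr2, Slc40a1, Tfrc, Slc11a2, Trf, Fth1 and Ftl1. They were chosen by symbol, as every probe that the array's probe-to-gene table assigns to them, which gave 10 of the 19053 genes with a probe and 17 of the 45281 probes. RNA of whole lung and whole liver from female BALB/c mice, 22 weeks old, was hybridised to 24 Illumina bead arrays, with 3 arrays in each of 8 groups. In each tissue the groups were 4T1 mice on high-fat diet, sham mice on high-fat diet, 4T1 mice on control diet and sham mice on control diet. The diets ran for 16 weeks before the injection and continued after it, 4T1 mice received cells of this mouse mammary carcinoma line in the mammary fat pad, sham mice received a sham injection, and tissue was taken 14 days later. The study asked how diet and the injected tumour cells alter gene expression in these organs. The labels do not say whether the 3 arrays of a group came from separate mice, so the p-values measure the spread between arrays, which may be technical.

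Iron leaves cells through ferroportin, the exporter encoded by Slc40a1, and the liver hormone hepcidin, encoded by Hamp, makes cells degrade ferroportin. Hepatocytes adjust hepcidin to iron through BMP6, HFE and transferrin receptor 2, and to inflammation through interleukin 6 and STAT3. Transferrin carries iron in blood, transferrin receptor 1 and the transporter DMT1 bring it into cells, and ferritin, built of heavy and light chains, stores it.

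Mice have a pair of hepcidin genes, Hamp (chr7:30942368-30944029, GRCm38.p6) and Hamp2 (chr7:30922372-30924181). Hamp is the one known to control iron in mice. Their promoters are shown because they are near copies, and they were searched for a motif of each control arm. Each RefSeq window (GRCm38.p6, minus strand) spans 250 bases before to 50 bases after the gene start, at chr7:30943980-30944279 for Hamp and chr7:30924132-30924431 for Hamp2. Capitals mark matches to GGCGCC, the core of the BMP-responsive element, and to TTCNNNGAA, the STAT motif. Both motifs read the same on either strand.
Hamp: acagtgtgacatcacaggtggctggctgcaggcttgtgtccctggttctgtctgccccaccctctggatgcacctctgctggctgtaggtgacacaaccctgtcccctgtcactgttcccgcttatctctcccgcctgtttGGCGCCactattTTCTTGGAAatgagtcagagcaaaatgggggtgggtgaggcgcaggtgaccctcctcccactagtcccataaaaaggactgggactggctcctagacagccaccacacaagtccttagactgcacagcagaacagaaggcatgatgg
Hamp2: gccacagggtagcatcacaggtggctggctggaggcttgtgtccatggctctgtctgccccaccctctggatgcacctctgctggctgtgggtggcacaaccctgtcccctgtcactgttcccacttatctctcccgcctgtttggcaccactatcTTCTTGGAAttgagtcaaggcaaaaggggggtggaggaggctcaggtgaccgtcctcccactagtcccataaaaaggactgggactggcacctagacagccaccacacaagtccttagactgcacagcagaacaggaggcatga
The windows were identical at 276 of 297 aligned positions (92.9%). The STAT match, TTCTTGGAA, began 97 bases before the start of Hamp and 94 bases before that of Hamp2. GGCGCC began 109 bases before the start of Hamp and had no match in the Hamp2 window. Of 32851 RefSeq promoter windows of this length, 11.9% held GGCGCC and 8.3% held TTCNNNGAA. Probe sequences were not used here, so signal shared between the Hamp and Hamp2 probes cannot be told apart from signal of each gene, and values of both are uncertain to that extent.

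Depth on arrays is the share of probes above background (detection p under 0.05). In lung it was 42.965% to 44.8% on 4T1 arrays and 51.0% to 52.4% on sham arrays, and in liver 40.4% to 41.5% on 4T1 arrays and 34.0% to 36.1% on sham arrays. Levels are log2 intensities normalised within each tissue, and a gene was called changed where limma's adjusted p, over all genes of the tissue, was under 0.05. Neutrophil markers (11 of 12 with a probe) had summed intensities of 275135 to 294779 in 4T1 lung and 18758 to 26683 in sham lung, and of 82999 to 110092 in 4T1 liver and 500 to 726 in sham liver. Alveolar epithelial markers had all 10 probes above background in lung, and 5 of the 10 were above background on no liver array. In 4T1 lung none of these 10 rose and 9 fell on high-fat diet, and none rose and 8 fell on control diet, with summed intensities of 156380 to 175574 in 4T1 lung and 208885 to 225647 in sham lung. Of 7 proliferation markers tested in lung, 7 rose on high-fat diet and 6 on control diet, with sums of 4980 to 10258 in 4T1 lung and 2031 to 2674 in sham lung. The part of these shifts in the lung results was not tested. Fewer cells of a type and less RNA per cell cannot be told apart in whole tissue.

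In 4T1 lung, the mRNA of the iron exporter rose while most other members fell. On high-fat diet 1 of 10 members rose and 5 fell, where 53.9% of all 12746 genes tested were called, 22.6% higher and 31.3% lower. On control diet 1 rose and 8 fell, where 52.8% were called, 20.6% higher and 32.2% lower. The median change over the 10 members was -0.26 on high-fat diet and -0.43 on control diet, against -0.08 and -0.09 over all genes. The share of members called on high-fat diet lay near that of all genes, and on control diet above it. With the mean of 12 hepatocyte markers as a covariate, 4 of 10 members were called on control diet where 40.2% of all genes were, and 5 of 10 on high-fat diet where 42.4% were. With median scaling in place of quantile normalisation the median change of all genes was -0.48 on high-fat diet and -0.50 on control diet, and every called member kept its direction.

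**Figure D1:**
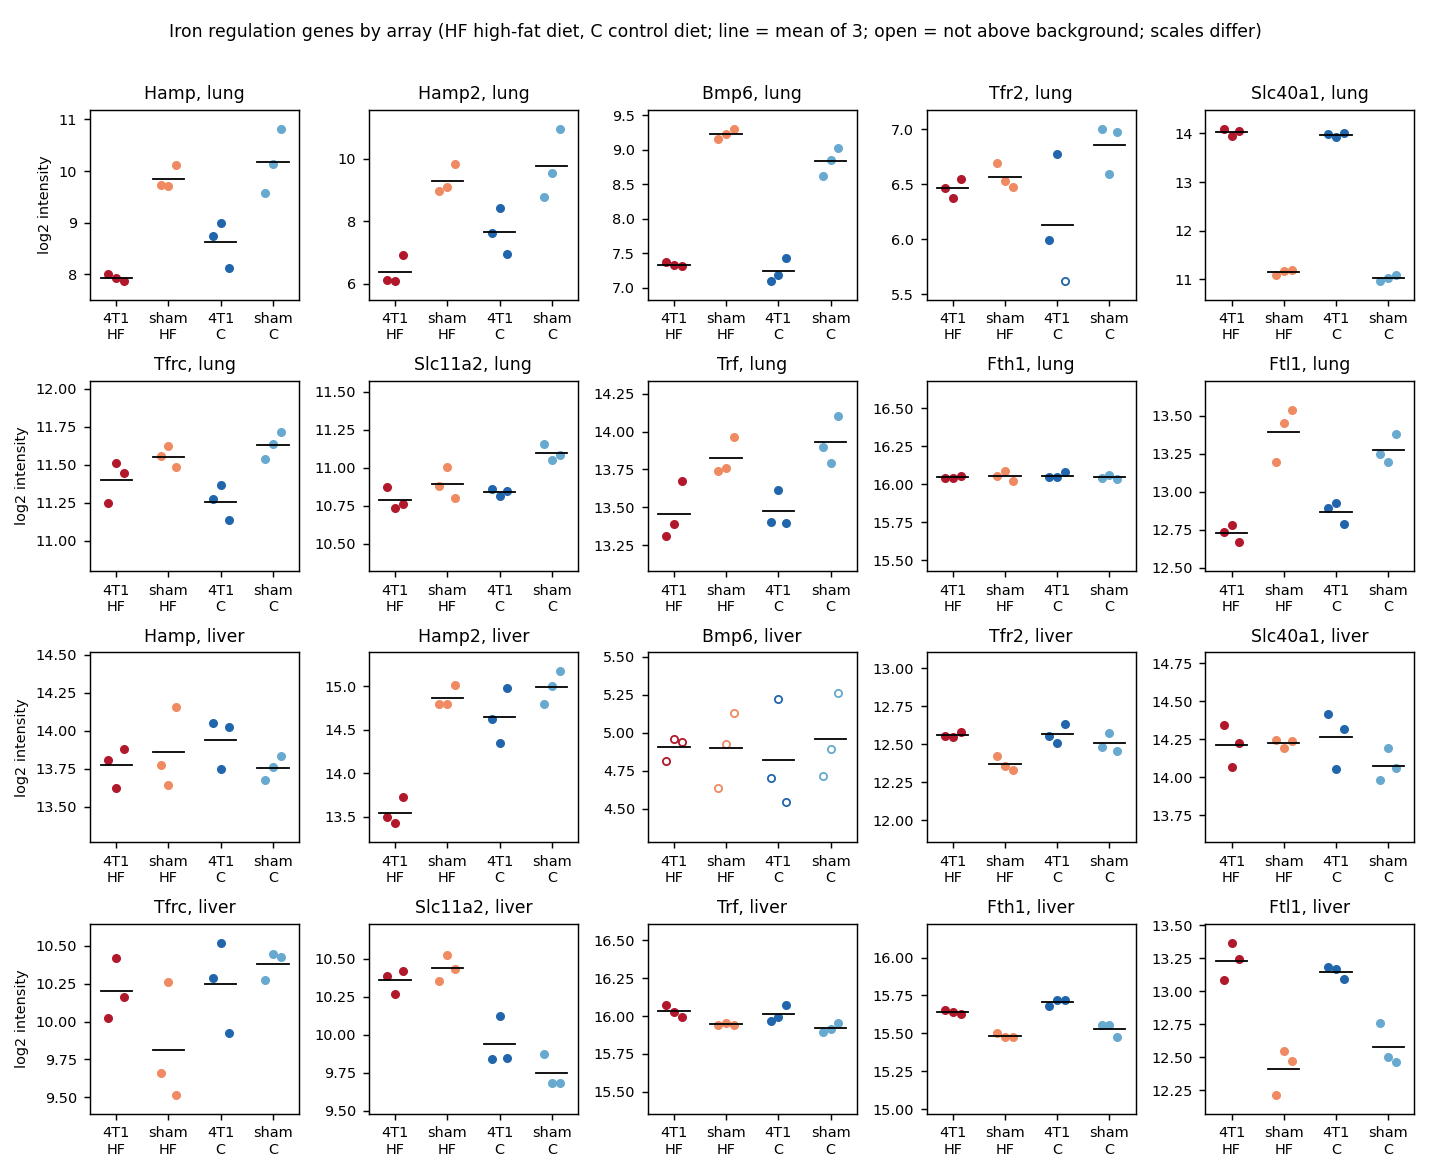
Log2 intensity (vertical axes, scales differ) of the 10 members on each array, lung in the upper panels and liver in the lower ones, by group along the horizontal axis; lines are means of 3 arrays and open points are arrays where the probe was not above background. Slc40a1 lay between 13.93 and 14.10 on 4T1 lung arrays and between 10.97 and 11.20 on sham lung arrays.

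Slc40a1 (chr1:45908070-45926532), the ferroportin gene, was measured at 14.10, 13.95 and 14.04 in lung of 4T1 mice on high-fat diet, against 11.09, 11.17 and 11.20 in sham mice on that diet. On control diet it was 13.99, 13.93 and 14.01 in 4T1 lung and 10.97, 11.02 and 11.10 in sham lung. Every 4T1 array was far above every sham array, and the diets overlapped. The change was 2.88 ± 0.06 on high-fat diet (SE, 3 arrays per group, 7.34-fold, limma adjusted p = 5.77e-11) and 2.94 ± 0.06 on control diet (7.69-fold, adjusted p = 3.22e-11). In liver the gene was at 14.21 ± 0.14 in 4T1 mice and 14.23 ± 0.03 in sham mice on high-fat diet (SD, n = 3), and at 14.26 ± 0.19 and 14.08 ± 0.11 on control diet. Neither liver change passed the test, with a 95% interval of -0.25 to 0.23 on high-fat diet and -0.05 to 0.42 on control diet. With median scaling, which raised the median change of all liver genes, Slc40a1 was 0.70 and 0.76 there. Both were called (adjusted p = 0.000321 and 0.000187), so the liver result depends on the scaling. The injection effect, averaged over diets, was 3.14 ± 0.08 higher in lung than in liver on the log2 scale (adjusted p = 1.13e-14). Over 31 alternatives in processing this difference ran from 1.79 to 3.18. A second probe for the gene was above background on no array.

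Neutrophil markers moved with Slc40a1 in lung: all 10 tested rose on both diets. The part of neutrophils in the lung result was not tested. Macrophages are known to make ferroportin. Of their markers in lung, 2 rose and 4 fell of 11 on high-fat diet, and none rose and 3 fell on control diet. The genes most like Slc40a1 over the 12 lung arrays were Adpgk, a glucokinase (Pearson r = 0.999), Ppp1r3d (0.999) and Lrg1 (0.999), values that mostly restate the split between 4T1 and sham arrays.

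Bmp6 (chr13:38345716-38500314), the ligand that reports iron to hepatocytes, was 7.37, 7.33 and 7.31 in 4T1 lung on high-fat diet and 9.16, 9.23 and 9.30 in sham lung. On control diet it was 7.10, 7.18 and 7.44 in 4T1 lung and 8.62, 8.85 and 9.02 in sham lung. The groups did not overlap, and Bmp6 changed by -1.90 on high-fat diet (SE 0.11, 3.72-fold lower, adjusted p = 1.4e-07) and by -1.59 on control diet (SE 0.11, 3.02-fold lower, adjusted p = 5.76e-07). Endothelial cells are a known source of Bmp6 in liver. Their markers were lower in summed intensity in 4T1 lung (40420 to 44537) than in sham lung (50255 to 55203), with 1 rising and 4 falling of 10 on high-fat diet and 1 rising and 5 falling on control diet. Their part in the result was not tested. With the log2 values deposited by the authors, Bmp6 was -1.29 on high-fat diet and -1.03 on control diet, both called. In liver the Bmp6 probe was above background on no array.

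Hepcidin transcripts were low in lung. Hamp was 8.01, 7.92 and 7.88 in 4T1 lung and 9.73, 9.71 and 10.11 in sham lung on high-fat diet, and 8.74, 9.00 and 8.12 in 4T1 lung and 9.58, 10.14 and 10.82 in sham lung on control diet. Hamp2 was 6.13, 6.10 and 6.91 in 4T1 lung and 8.96, 9.11 and 9.83 in sham lung on high-fat diet, and 7.61, 8.44 and 6.96 in 4T1 lung and 8.78, 9.55 and 10.97 in sham lung on control diet. No 4T1 array reached a sham array on the same diet for either gene.
Hamp changed by -1.92 on high-fat diet (SE 0.29, adjusted p = 0.000241) and by -1.56 on control diet (SE 0.29, adjusted p = 0.00103). The change of Hamp2 was -2.91 on high-fat diet (SE 0.53, adjusted p = 0.000863) and -2.09 on control diet (SE 0.53, adjusted p = 0.00669). With the deposited log2 values it was -1.77 and -1.55, both called.

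Transcripts known from hepatocytes were lower in the same lung arrays. Of 15 such markers, 12 were tested, of which none rose and 8 fell on high-fat diet and none rose and 9 fell on control diet. Their summed intensity was 7323 to 20836 in 4T1 lung and 20296 to 33162 in sham lung on high-fat diet, and 12090 to 27867 in 4T1 lung and 31857 to 41632 in sham lung on control diet, with Fgb and Tat above background on no lung array. Cyp2e1 and Apoa2, an enzyme and an apolipoprotein of hepatocytes, changed by -1.20 and -1.78 on high-fat diet and by -1.66 and -1.61 on control diet, all 4 called. With the mean of these 12 markers in the fit, Hamp was -1.57 on high-fat diet (adjusted p = 0.0098) and -1.24 on control diet (adjusted p = 0.0246), and Hamp2 was -1.80 (adjusted p = 0.0324) and -1.07 (adjusted p = 0.154, no longer called). In the same fit Slc40a1 was 2.86 and 2.93 and Bmp6 -1.91 and -1.60, all 4 still called. The marker mean itself was lower in 4T1 lung, so this fit cannot separate hepatocyte RNA from the injection. A call kept or lost in it therefore does not show where a change came from. The part of hepatocyte RNA in the lung results was not tested.

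**Figure D2:**
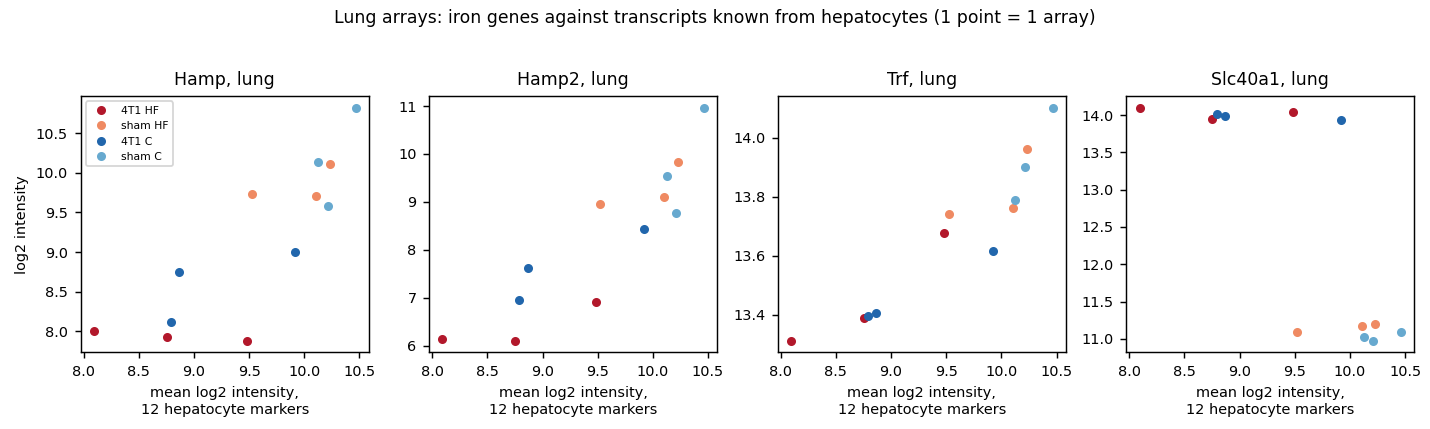
Log2 intensity of Hamp, Hamp2, Trf and Slc40a1 (vertical axes) against the mean log2 intensity of 12 hepatocyte markers (horizontal axes) on the 12 lung arrays, 1 point per array. The marker mean ran from 8.09 to 9.92 on 4T1 arrays and from 9.52 to 10.47 on sham arrays; Slc40a1 was near 14 on 4T1 arrays across that range.

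Transferrin (Trf, chr9:103208876-103230286) was also lower in 4T1 lung, with changes of -0.36 on high-fat diet (adjusted p = 0.0213) and -0.46 on control diet (adjusted p = 0.00686). With the hepatocyte marker mean in the fit it was -0.07 (adjusted p = 0.639) and -0.19 (adjusted p = 0.163), and neither was called. Its call on high-fat diet was also lost on leaving out 4T1 array 1, 4T1 array 2 or sham array 3, with adjusted p of 0.0788, 0.0658 and 0.0828. Bhmt2, Cyp2b13 and Slc27a5 were the genes most like Trf across lung arrays (r = 0.972, 0.968 and 0.967).

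Of the ferritin chains, the light chain fell in lung and the heavy chain could not be resolved. The light chain Ftl1 (chr7:45457944-45459886) was 12.74, 12.78 and 12.67 in 4T1 lung and 13.19, 13.45 and 13.54 in sham lung on high-fat diet, and 12.89, 12.92 and 12.78 in 4T1 lung and 13.25, 13.20 and 13.38 in sham lung on control diet. It changed by -0.67 (SE 0.09, adjusted p = 0.000114) and by -0.41 (SE 0.09, adjusted p = 0.00311), and with the hepatocyte marker mean in the fit it was -0.56 (adjusted p = 0.00503) and -0.31 (adjusted p = 0.0588). The heavy chain Fth1 (chr19:9980600-9985111) lay between 16.02 and 16.09 on all 12 lung arrays, at the top of the intensity scale (16.09), where differences are compressed. Its measured change of -0.01 on high-fat diet and 0.01 on control diet therefore does not show that its level held, and a second, slightly dimmer probe gave -0.11 and -0.05, neither called. Ferritin genes have many pseudogenes, so the source of their probe signal is uncertain. A second Ftl1 probe was above background on no lung or liver array, so all Ftl1 values rest on 1 probe.

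The uptake genes changed little. Tfrc (chr16:32608896-32632794), transferrin receptor 1, was -0.15 on high-fat diet (adjusted p = 0.151) and fell by 0.37 on control diet (adjusted p = 0.00402), and its second probe gave -0.09 and -0.18, neither called. Slc11a2 (chr15:100387898-100424209), which encodes DMT1, was -0.11 on high-fat diet (adjusted p = 0.191) and fell by 0.26 on control diet (adjusted p = 0.00703), with all 3 probes lower on both diets. These values are of its brightest probe. The other probes were called lower on high-fat diet (-0.38 and -0.17, adjusted p = 0.00436 and 0.0348), as was the mean of probes (-0.22, adjusted p = 0.00665). Tfr2 (chr5:137569822-137588081), the receptor by which hepatocytes sense transferrin, was near background in lung, at -0.10 on high-fat diet (adjusted p = 0.727) and -0.73 on control diet (adjusted p = 0.0217). The control-diet groups overlapped, with 5.99, 6.77 and 5.62 in 4T1 lung and 7.01, 6.59 and 6.98 in sham lung. That call was lost when only the 2 groups compared were fitted (adjusted p = 0.075) and on leaving out 4T1 array 1 (adjusted p = 0.0668), 4T1 array 3 (0.0783), sham array 1 (0.0687) or sham array 3 (0.0678). With the deposited log2 values the change was -0.28 (adjusted p = 0.0146). With the hepatocyte marker mean in the fit, Tfr2 and Tfrc on control diet were not called (adjusted p = 0.33 and 0.0904).

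**Figure D3:**
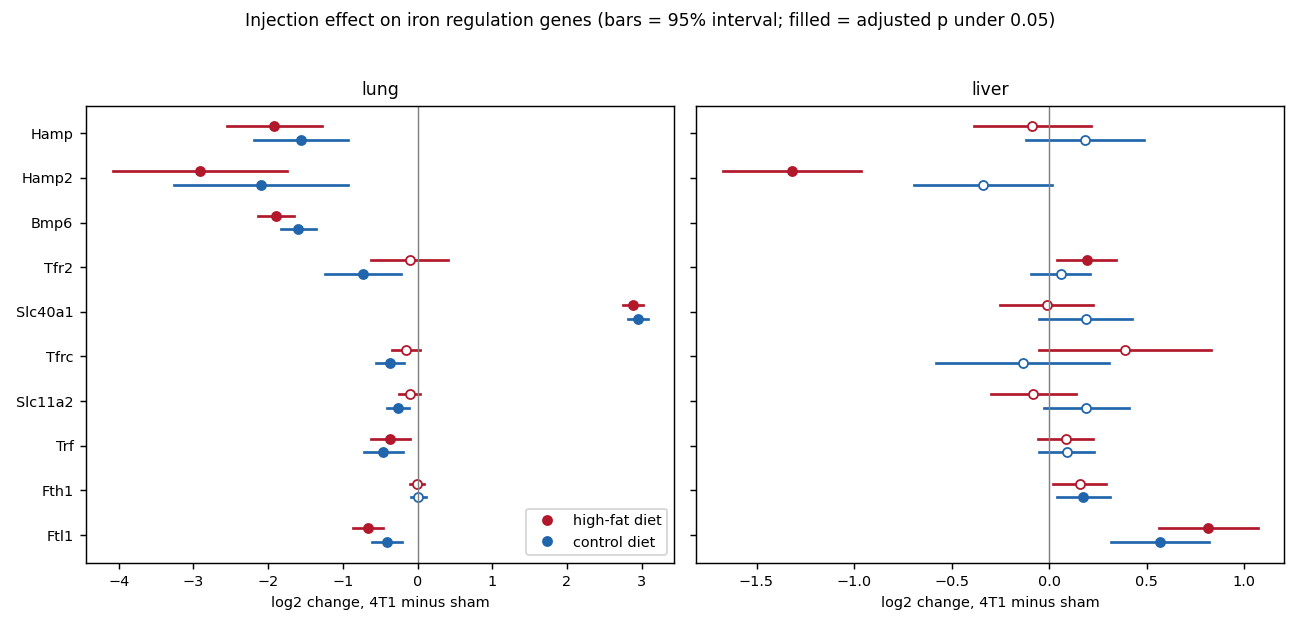
Log2 change, 4T1 minus sham (horizontal axes), of each member (vertical axis) in lung and liver on each diet, with 95% intervals; filled points have a limma adjusted p under 0.05. In lung Slc40a1 stood at 2.88 and 2.94 while 8 members lay below 0 on both diets, and in liver the changes ran from -1.32 for Hamp2 on high-fat diet to 0.82 for Ftl1 on high-fat diet.

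In 4T1 liver, ferritin light chain mRNA rose on both diets and Hamp2 fell on high-fat diet. On high-fat diet 2 of 9 tested members rose and 1 fell, where 48.8% of all 10904 genes tested were called, 21% higher and 27.7% lower. On control diet 2 rose and none fell, where 43.3% were called, 20.5% higher and 22.8% lower. Both shares of members lay below those of all genes, but with median scaling 9 of 9 members were called on high-fat diet where 81.4% of genes were, and 7 of 9 on control diet where 77.4% were. Ftl1 was 13.08, 13.37 and 13.24 in 4T1 liver and 12.22, 12.55 and 12.47 in sham liver on high-fat diet, and 13.18, 13.17 and 13.10 in 4T1 liver and 12.76, 12.51 and 12.47 in sham liver on control diet. The groups did not overlap, and Ftl1 rose by 0.82 ± 0.11 (SE, 1.76-fold, adjusted p = 0.000255) and by 0.57 ± 0.11 (1.48-fold, adjusted p = 0.0026), the opposite direction to lung. With median scaling the median change of all liver genes was 0.73 and 0.66, and Ftl1 was 1.56 and 1.18. Macrophage markers rose with it in liver, 8 of 11 on high-fat diet and 10 of 11 on control diet, with summed intensities of 15127 to 18049 in 4T1 liver and 10411 to 11635 in sham liver. Their part in the result was not tested. Fth1 was 0.16 higher on high-fat diet (adjusted p = 0.0572) and rose by 0.18 on control diet (adjusted p = 0.0397), a call lost on leaving out any of 5 of the 6 arrays, with sham array 1 the exception (adjusted p = 0.0632 to 0.108), and under 5 other settings (0.0526 to 0.104). Its second probe gave 0.31 on high-fat diet (adjusted p = 0.0148, called) and 0.19 on control diet (adjusted p = 0.105). On high-fat diet the mean of probes was also called (0.23, adjusted p = 0.0178). The deposited log2 values, a detection p under 0.01 and median scaling called the high-fat rise too (adjusted p = 0.0272, 0.0456 and 1.94e-05).

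Of the hepcidin genes in liver, Hamp2 fell on high-fat diet, and no other change was called in the main fit. Hamp was 13.81, 13.63 and 13.88 in 4T1 liver and 13.78, 13.64 and 14.16 in sham liver on high-fat diet, and 14.05, 13.74 and 14.03 in 4T1 liver and 13.68, 13.76 and 13.83 in sham liver on control diet. The groups overlapped on both diets, with changes of -0.09 (95% interval -0.39 to 0.22) and 0.18 (-0.12 to 0.48). With median scaling, which raised the median change of all liver genes, Hamp was 0.64 and 0.82, both called (adjusted p = 0.00201 and 0.000364). Hamp2 was 13.49, 13.42 and 13.73 in 4T1 liver and 14.79, 14.79 and 15.01 in sham liver on high-fat diet, and 14.62, 14.34 and 14.98 in 4T1 liver and 14.80, 15.00 and 15.17 in sham liver on control diet. Hamp2 fell by 1.32 on high-fat diet (SE 0.16, 2.5-fold lower, adjusted p = 0.000105; -0.65 with median scaling) and was -0.34 on control diet (adjusted p = 0.109). The difference between these effects was -0.98 ± 0.23 (adjusted p = 0.0835) and did not pass the test, and 0.945% of all genes did. The control-diet fall of Hamp2 was called with the deposited log2 values, a replicate block and without 4T1 array 3 (adjusted p = 0.0466, 0.0321 and 0.0234).

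Of 8 genes of the arm that carries interleukin 6 signals to hepcidin, 5 rose and none fell in 4T1 liver on high-fat diet, where 21% of all genes rose, and 5 rose and 1 fell on control diet, where 20.5% rose. Socs3, the feedback inhibitor of STAT3, rose by 1.63 and 2.10, Stat3 by 1.42 and 1.34, and the hepatic factor Creb3l3 by 0.61 and 0.44. The receptor subunit gene Il6st was called higher on both diets (adjusted p = 0.000283 and 0.0026), but it was above background on no sham liver array and its size is not given. The BMP and SMAD arm was mixed: of 15 tested, 4 rose and 7 fell on high-fat diet and 3 rose and 5 fell on control diet. Among all liver genes tested, 27.7% fell on high-fat diet and 22.8% on control diet. Hfe, the haemochromatosis gene, rose by 0.59 and 0.55, while Bmp4 fell (-0.57 and -0.76), as did the inhibitory Smad6 (-0.55 and -0.78, adjusted p = 0.0496 on high-fat diet) and the hepcidin-suppressing protease Tmprss6 (-0.43 and -0.62). In lung the same arm had 1 rising and 9 falling of 16 on high-fat diet and 1 rising and 10 falling on control diet, among them the receptor Bmpr1a, which fell (-1.23 and -0.93). Among all lung genes tested, 22.6% rose and 31.3% fell on high-fat diet, and 20.6% rose and 32.2% fell on control diet. The BMP target Atoh8, above background on no 4T1 lung array, was at least 1.91-fold lower on high-fat diet and at least 1.64-fold lower on control diet (adjusted p = 8.31e-06 and 5.79e-05).

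Other members in liver showed no large change on their brightest probe. Tfr2 rose by 0.19 on high-fat diet (adjusted p = 0.0374), a call lost on leaving out 5 of the 6 arrays, with sham array 1 the exception (adjusted p = 0.073 to 0.0972), and under 5 other settings (0.0524 to 0.275). It was 0.06 on control diet. A second Tfr2 probe gave 0.13 on high-fat diet and -0.54 on control diet (adjusted p = 0.628 and 0.0529), neither called. On that probe the control-diet groups did not overlap (8.95 to 9.41 in 4T1 liver and 9.64 to 9.76 in sham liver). Trf lay between 15.89 and 16.07, at the top of the liver scale (16.07), with changes of 0.09 on both diets, neither called. Tfrc was 0.39 on high-fat diet (adjusted p = 0.132) and -0.14 on control diet (adjusted p = 0.615). Slc11a2 on its brightest probe was -0.08 and 0.19, neither called, but its dimmest probe rose by 0.78 and 0.74 (adjusted p = 0.0075 and 0.0112) and the other fell (-0.35 and -0.60, adjusted p = 0.0249 and 0.00181).

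**Figure D4:**
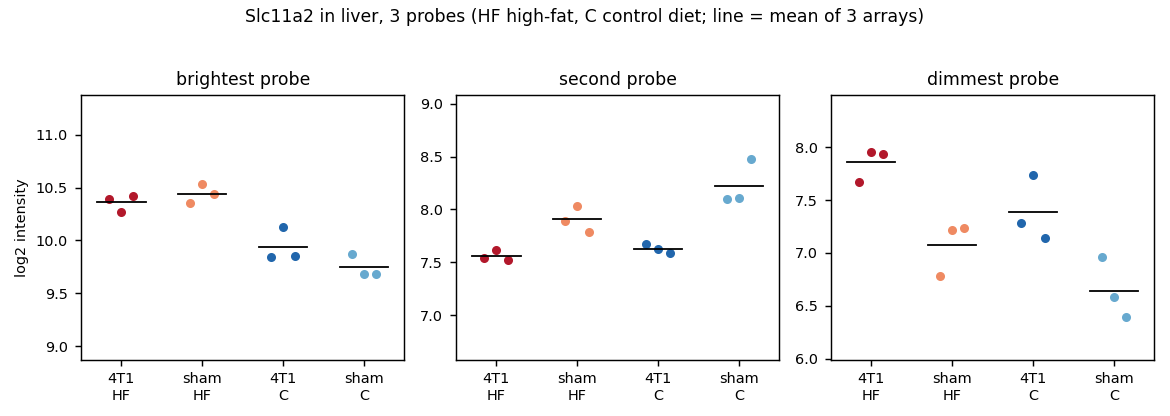
Log2 intensity (vertical axes) of the 3 Slc11a2 probes on liver arrays by group (horizontal axes); lines are means of 3 arrays. The dimmest probe was higher, and the second probe lower, in 4T1 than in sham liver on each diet, and the brightest probe was higher on high-fat than on control diet.

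Genes of iron handling beyond the members were also read in both tissues. For other transporters and ferrireductases in liver, 15 were tested: the high-fat diet had 3 higher and 2 lower in 4T1 mice, and the control diet 3 higher and 3 lower. Of all liver genes tested, 21% rose and 27.7% fell on high-fat diet, and 20.5% rose and 22.8% fell on control diet. The ferroxidase gene Cp rose by 0.96 and 0.75, the phagosomal transporter Slc11a1 by 0.33 and 0.53, and the transporter Slc39a8 fell (-0.41 and -0.59). In lung 2 rose and 5 fell of 17 on high-fat diet and 2 rose and 7 fell on control diet, with Slc11a1 higher by 1.75 and 1.98. Of all lung genes tested, 22.6% rose and 31.3% fell on high-fat diet, and 20.6% rose and 32.2% fell on control diet. The counts of transporters and ferrireductases do not set that list apart from all genes in either tissue. Of the iron-binding host defence genes, which neutrophils express, Lcn2 rose by 3.55 in liver on high-fat diet and by 3.16 in lung. Ltf was above background on no sham liver array on that diet and was at least 351-fold higher in 4T1 liver (means 14.07 and 5.06, adjusted p = 1.65e-10), a bound set by the lowest signal above background. In lung it rose by 2.77, to the top of the scale (16.04 in 4T1 lung and 13.27 in sham lung). Hmox1, which breaks down haem, rose by 1.11 and 0.72 in liver and by 1.06 and 1.08 in lung, while the haemoglobin receptor Cd163 rose by 1.00 and 1.01 in liver and fell in lung (-1.15 and -0.86). In the iron-responsive element system, Aco1, iron regulatory protein 1, fell in lung (-0.98 and -0.85) and Fbxl5, which targets iron regulatory protein 2 for degradation, rose by 0.61 and 0.79.

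Diet moved few members. In liver of sham mice 1 of 9 was called (11.2% of all genes): Slc11a2 was 10.36, 10.53 and 10.44 on high-fat diet and 9.87, 9.68 and 9.69 on control diet, a rise of 0.69 ± 0.10 (adjusted p = 0.00151). The other probes gave 0.43 and -0.32, neither called, and the mean of the 3 probes gave 0.27 (adjusted p = 0.119). Cdkn1a, Chka and Gpc1 were most like the brightest probe across liver arrays (r = 0.964, 0.947 and 0.945). Tfrc in sham liver was -0.57 on high-fat diet (adjusted p = 0.0991), and its second probe gave -0.65, neither called. That fall of Tfrc was called with median scaling, the deposited log2 values and a replicate block (adjusted p = 0.0314, 0.0332 and 0.0438). Leaving out sham high-fat array 2 also gave a call (adjusted p = 0.0195). In liver of 4T1 mice 1 of 9 was called (0.303% of all genes): Hamp2 fell by 1.10 (SE 0.16, adjusted p = 0.0196), a call lost on leaving out any of 5 of the 6 arrays, with adjusted p of 0.0707 to 0.127, and kept without control-diet array 2. In lung none of 10 was called in sham mice (1.67% of all genes; 2 members had an unadjusted p under 0.05) or in 4T1 mice (0% of all genes by limma; 2 members had an unadjusted p under 0.05). Bmp6 in sham lung was 0.40 on high-fat diet (adjusted p = 0.102), and was called with the deposited log2 values (0.31, adjusted p = 0.0345). The difference of injection effects between diets was called for no member in liver (1 at an unadjusted p under 0.05) or lung (none, where 0.0863% of all genes were called).

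The injection effect was called different between lung and liver for all 9 members tested in both, where 60.5% of 10365 genes were. Fth1 in lung and Trf in liver lay at the top of the intensity scale, so their calls cannot be read as a tissue difference. The Slc11a2 probes gave -0.24, -1.11 and 0.23, all called, so its direction depends on the probe. For Tfrc the call was lost with the mean of probes (-0.25, limma adjusted p = 0.179), and its second probe gave -0.11, not called. For Ftl1, called in opposite directions in the 2 tissues, lung minus liver was -1.20.

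In sham mice on control diet the tissues were set on 1 scale by normalising all 24 arrays together, and 7 of 9 members differed, where 79.8% of 10365 genes did. Tfr2 was 6.35 ± 0.20 in lung and 12.79 ± 0.05 in liver (SD, n = 3; change -6.44), Hamp2 9.27 ± 1.17 and 15.10 ± 0.21 (-5.83), and Hamp 9.70 ± 0.65 and 13.88 ± 0.07 (-4.17). Slc40a1 was 10.60 ± 0.07 in lung and 14.17 ± 0.10 in liver (-3.57), and Trf 13.81 ± 0.18 and 15.98 ± 0.02 (-2.16). Fth1 and Slc11a2 were higher in lung by 0.34 and 0.29, and Ftl1 (0.21) and Tfrc (0.30) were not called. With median scaling Ftl1 (0.60, adjusted p = 0.000266) and Tfrc (1.32, adjusted p = 5.47e-08) were called higher in lung. A second Tfrc probe gave -0.14, and 1 of the other Slc11a2 probes gave 0.14, neither called. Fth1 in lung and Trf in liver lay at the top of the scale, so their differences are compressed. Bmp6 was at least 3.59-fold higher in lung, a bound set by the lowest signal above background in liver.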

How the data were processed

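The deposited probe intensity values are unnormalised bead signals, from GenomeStudio 2009.2 (per the submitters' processing notes), and each has a deposited detection p-value. The deposited log2 table matched quantile-normalised log2 signals per tissue within 0.01 for 99.9997% of values, and served as an alternative. Intensities were background-corrected and quantile-normalised per tissue with limma 3.58.1 (neqc, offset 16; R 4.3.3). Probes with 1 gene symbol and a detection p under 0.05 on at least 3 of 12 arrays were kept, with the brightest probe per gene. Groups came from sample titles. lmFit and eBayes over 12 arrays (24 for tissue contrasts) gave p-values adjusted by Benjamini-Hochberg over all genes. The fits were tested on simulated data. Alternatives covered scaling, filters, probes, array weights, a replicate block, leaving out arrays and, in lung, a hepatocyte marker covariate. Members and gene lists were chosen with earlier results of these data known. All members are named; from other lists, genes are among up to 4 per tissue with the largest change called on both diets in 1 direction; 3 genes most like a member are named by Pearson r. Slide is not given in the sources used here. Promoters were searched and aligned with Biopython 1.88.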

Additional observations from a re-analysis of the deposited data

Results flagged for a closer look

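The injection effect differed between lung and liver, by limma's test of that difference over 24 arrays averaged over diets, for all 9 members tested in both tissues, where 60.5% of all genes did. Lung minus liver was 3.14 for Slc40a1, -1.86 for Hamp, -1.68 for Hamp2, -1.20 for Ftl1, -0.53 for Trf, -0.45 for Tfr2, -0.40 for Tfrc, -0.24 for Slc11a2 and -0.15 for Fth1. The tissue effects behind them were 3.23 in lung and 0.08 in liver for Slc40a1, -1.82 and 0.04 for Hamp, -2.49 and -0.81 for Hamp2, and -0.60 and 0.60 for Ftl1. For Tfrc the call was lost with the mean of its probes (-0.25, adjusted p = 0.179) and on leaving out liver sham high-fat array 3, liver 4T1 control array 2, liver 4T1 high-fat array 2 or lung 4T1 high-fat array 1 (adjusted p = 0.0504 to 0.0534). The 3 Slc11a2 probes gave -0.24, -1.11 and 0.23, all called, so its direction depends on the probe. Fth1 in lung and Trf in liver lay at the top of the intensity scale, where changes are compressed. Their calls therefore cannot be read as a tissue difference.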

How the results depend on the processing

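Among called members, 670 of 715 alternative values stayed called in the same direction, 45 were no longer called and none reversed. Among members not called, 1213 of 1251 stayed so, whatever their sign, 33 became called and 5 became called with the opposite sign. These 5 came with median scaling, which moved the median change of all genes to 0.73 and 0.66 in liver (high-fat and control diet) and to -0.48 and -0.50 in lung: Tfrc in liver on control diet (0.64), Hamp (0.64), Slc11a2 (0.78) and Slc40a1 (0.70) in liver on high-fat diet, and Fth1 in lung on control diet (-0.24). Under that scaling Hamp2 in liver on high-fat diet was -0.65 and Slc40a1 in lung was 2.50 and 2.53. The cause of the changes below was not tested.

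Median scaling called 8443 (control) and 8881 (high-fat) genes for injection in liver, 10458 and 10364 in lung, 802 and 57 for diet in sham and 4T1 liver, 52 for their difference and 9709 for lung minus liver; members called were 7 (control) and 9 (high-fat) for injection in liver, 10 in lung on high-fat diet and 2 for diet in sham liver. Deposited values called 170 genes for diet in 4T1 liver, 222 for the liver difference between diets, 369 and 2 for diet in sham and 4T1 lung and 36 for the lung difference, with 2, 2, 1 and 1 members for diet in sham liver, diet in 4T1 liver, the liver difference (Hamp2, adjusted p = 0.0117) and diet in sham lung. Without the filter 39, 133 and 7 genes were called for the liver difference, diet in sham lung and the lung difference, and 1 member for injection in liver on control diet. The stricter filter gave 1 gene for diet in 4T1 lung. Every probe tested gave 10580 and 10676 probes for injection in lung, 2 for diet in 4T1 lung and 1 member for injection in liver on control diet; the mean of probes gave 1 there and 0 for diet in sham liver. Array weights gave 636, 266 and 471 genes for diet in sham liver, 4T1 liver and sham lung, and 2 members for 4T1 liver. Fitting only the 2 groups compared gave 324 and 104 genes for diet in sham and 4T1 liver and 1 member for injection in liver on control diet. The hepatocyte covariate gave 6 genes for diet in 4T1 lung and 4 members for injection in lung on control diet. Same-numbered arrays correlated by -0.13 to 0.05 in liver and -0.18 to 0.29 in lung, so numbers were not taken as pairs. With the replicate block, 9 and 36 genes were called for diet in 4T1 liver and the liver difference, 115, 1 and 4 for diet in sham lung, diet in 4T1 lung and the lung difference, 2 members for diet in sham liver and 1 for the liver difference (Hamp2, adjusted p = 0.0459).

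Leaving out 1 array gave 4 to 13 genes for diet in 4T1 liver, 19 to 113 for the liver difference, 49 to 95 for diet in sham lung, 0 to 3 for diet in 4T1 lung and 3 to 17 for the lung difference; members called were 1 to 2 for injection in liver on control diet, 1 to 2 for diet in sham liver and 0 to 1 for diet in 4T1 liver. With 3 arrays per group, small changes cannot be resolved, and probes near background or at the top of the scale understate differences.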

Other observations

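In liver 1 rose and 5 fell of 7 iron-sulfur cluster genes tested on high-fat diet, and 1 rose and 4 fell on control diet: the scaffold gene Iscu fell (-0.52 and -0.31), as did Isca1 (-0.38 and -0.32). Nfu1 rose by 1.38 and 1.53. Of all liver genes tested, 21% rose and 27.7% fell on high-fat diet, and 20.5% rose and 22.8% fell on control diet. In lung none rose and 3 fell on high-fat diet, and none rose and 2 fell on control diet, among them Isca1 (-0.42 and -0.39). Of all lung genes tested, 22.6% rose and 31.3% fell on high-fat diet, and 20.6% rose and 32.2% fell on control diet. For haem synthesis, 8 were tested in lung, with 1 higher and 3 lower in 4T1 mice on high-fat diet and 1 higher and 2 lower on control diet. Alas1, the first enzyme of the pathway, fell there (-0.38 and -0.47). The erythroid enzyme gene Alas2 rose by 0.44 and 0.57 in liver. Erythroid markers, a list that holds Alas2 itself, summed to 1512 to 1793 in 4T1 liver arrays and 1103 to 1484 in sham liver arrays. The mean log2 intensity of that list was 5.73 to 5.84 in 4T1 liver and 5.56 to 5.80 in sham liver, ranges that overlapped. In liver Alas1, singled out after its values were seen, rose by 0.57 in 4T1 mice on high-fat diet (14.46 against 13.88 in sham mice, limma adjusted p = 0.00597) and fell on control diet (-0.60, 14.64 against 15.23, adjusted p = 0.00585). The difference between these effects was 1.17 ± 0.20 (SE, adjusted p = 0.0289). In sham liver Alas1 was lower on high-fat diet than on control diet (-1.35, adjusted p = 0.000207).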
